A study of Mus musculus with 6 samples.

Results

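The genes described here are 10 members of the tumour necrosis factor (TNF) receptor and ligand superfamily in PA6 cells: the receptors TNFRSF12A, TNFRSF1A, TNFRSF1B, TNFRSF10B, TNFRSF21, TNFRSF19, FAS and NGFR, the secreted decoy receptor TNFRSF11B, and its ligand TNFSF11, which is no receptor. They were taken by gene symbol and measured with 24 of the 45281 probes on the arrays, that is 10 of 30854 gene names. The genes were selected with their measured values in these same arrays known, TNFRSF12A having 1 of the largest differences with FGF2, so that the members' values, differences and standard errors are given as a description without a test.

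The study asked how FGF2 and BMP4, which both lead murine ES cells toward endothelium in co-culture, act on the stromal PA6 cells that serve as feeder layer. Confluent monolayers of PA6 cells alone, a murine stromal cell line, were incubated for 3 h in serum-free medium that held no growth factor (-GFs), recombinant FGF2 at 20 ng/ml or recombinant BMP4 at 10 ng/ml. Each biological replicate had 1 well per condition, with 2 replicates per group and 6 arrays in all. RNA was measured on Illumina bead arrays, and the deposited intensities were normalized between arrays and converted to log2.

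Receptors of this superfamily are activated when a trimeric ligand gathers them at the cell surface. Some, such as FAS and TNFRSF1A, carry a cytoplasmic death domain that can recruit adaptors leading to caspases, and others bind TRAF adaptors that lead to NF-kB and MAP kinases. In stromal cells of bone, TNFSF11 (RANKL) and its decoy receptor TNFRSF11B (osteoprotegerin) control how many osteoclasts form from neighbouring precursors.

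On the 6 arrays 15509 to 16459 probes were detected (detection p under 0.05), and the lowest detected signal corresponded to 7.56 to 7.62 on the normalized log2 scale. The number of arrays limits the precision. All 12 stromal markers, among them COL1A1, PDGFRA and THY1, were detected on all arrays. Of markers of other cells, 5 of 10 adipocyte, 3 of 11 leukocyte and 2 of 7 endothelial genes were tested. So were 2 of 6 pluripotent cell and 1 of 6 epithelial genes, and none of these markers was called. The leukocyte genes tested were CD14 and LYZ2, detected on all 6 arrays, and CSF1R, detected on 5, while PTPRC was not tested. CD14 had a mean log2 value of 10.92 in -GFs. The summed intensity of the leukocyte markers was 2427 to 2481 without growth factors, 2079 to 2148 with FGF2 and 2167 to 2303 with BMP4. That of the adipocyte markers differed more between the arrays of a group, with 3064 to 4144, 2981 to 4598 and 3305 to 5161 in that order. The part of either in the values below was not tested. Since whole wells were measured, fewer cells that express a gene and less of its RNA per cell cannot be told apart.

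Of the 24 probes of the members, 15 were detected in 1 or more groups on both of its arrays, 9 were detected on all 6 arrays and 8 on none. 9 of the 10 members had at least 1 probe above this filter and 5 had a probe detected on all arrays, namely TNFRSF12A, TNFRSF1A, TNFRSF1B, TNFRSF10B and FAS. The probe of each gene with the largest mean stands for it below. With FGF2, 6 members were higher and 3 lower than in -GFs, with a median log2 fold change of 0.14. Only TNFRSF12A was past both thresholds of the methods (absolute log2 fold change over 1 and limma adjusted p under 0.1). Over all 11872 genes tested, 2.28% were up-regulated and 1.25% down-regulated with FGF2 by that rule. With BMP4, 3 members were higher and 6 lower, with a median of -0.09, and none was past the thresholds, beside 0.00842% of all genes up-regulated (ID1 alone, a BMP target named here after its value was seen) and 0% down-regulated. As the members were chosen on these values, nothing is read from these counts. FGF2 and BMP4 were compared with the same -GFs arrays.

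**Figure D1:**
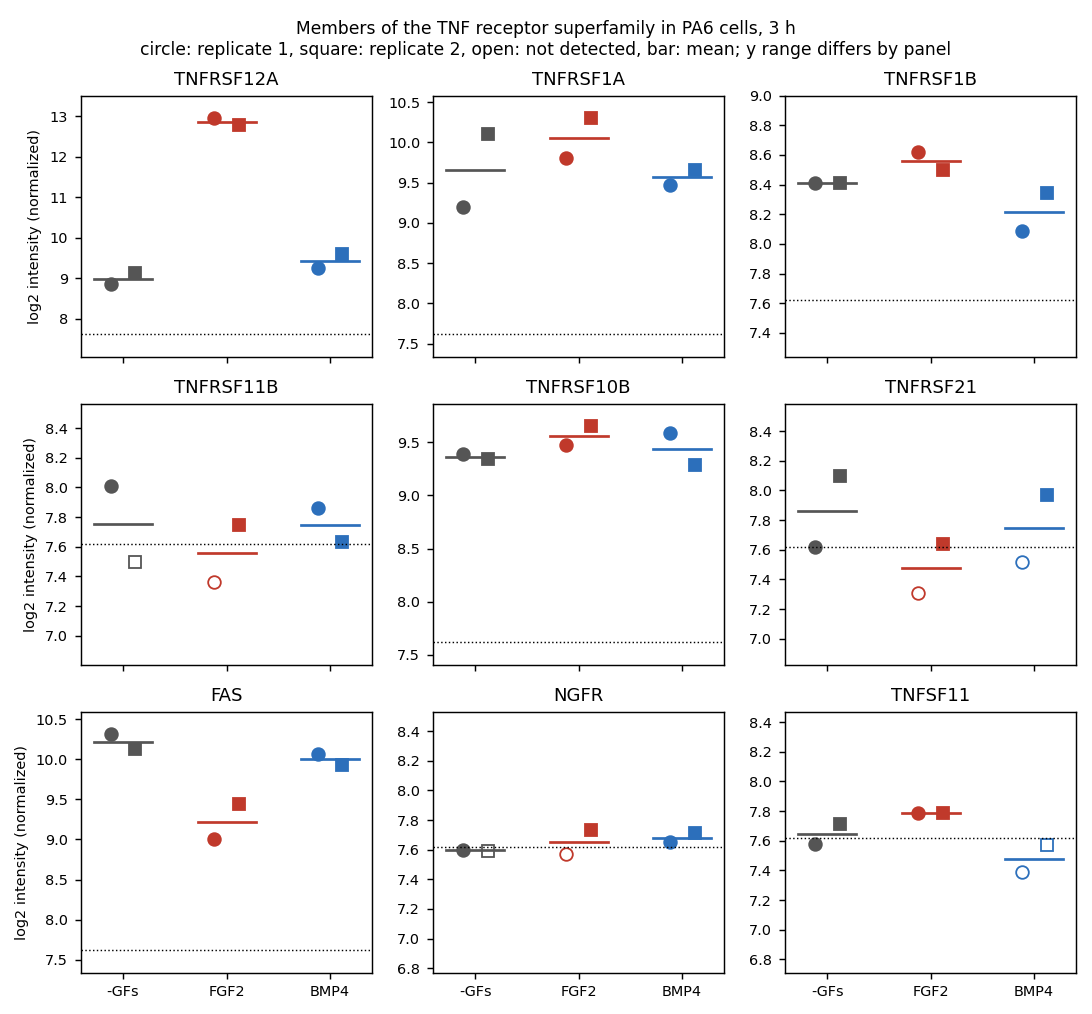
Normalized log2 intensity of the 9 members with a probe above the detection filter, on each of the 6 arrays (x axis, group; circles, replicate 1; squares, replicate 2; open symbols, not detected; bars, group means; dotted line, the highest of the arrays' detection floors, 7.62). TNFRSF12A is near 9 without growth factors and near 13 with FGF2, FAS is lowest with FGF2, and TNFRSF11B, TNFRSF21, NGFR and TNFSF11 lie near the floor.

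TNFRSF12A (FN14), the receptor of the cytokine TWEAK, is a small transmembrane protein that lacks a death domain and binds TRAF adaptors. Its gene lies on mouse chromosome 17 (chr17:23675445-23677449, GRCm38.p6). The deposited intensity of its single probe was 536 and 521.7 in -GFs, 7702.6 and 6833.8 with FGF2, and 572.9 and 785.2 with BMP4. After normalization, log2 values were 8.86 and 9.12 in -GFs, 12.95 and 12.78 with FGF2, and 9.24 and 9.60 with BMP4. Both FGF2 arrays were far above the other 4, and both BMP4 arrays were above both -GFs arrays by much less. Group means were 8.99 ± 0.18 in -GFs, 12.87 ± 0.12 with FGF2 and 9.42 ± 0.25 with BMP4 (SD, n = 2). The log2 fold change with FGF2 was 3.88 (SE 0.19), a 14.7-fold higher level, and was the third highest of the 11872 genes tested. It was 4.10 in the first pair of wells and 3.67 in the second. With BMP4 the log2 fold change was 0.43 (SE 0.19), 0.38 and 0.48 in the pairs, and the level with FGF2 exceeded that with BMP4 10.9-fold. Omission of any 1 array gave 3.75 to 4.01 with FGF2 and 0.25 to 0.61 with BMP4.

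FAS, the death domain receptor of FAS ligand, was the member with the lowest log2 fold change with FGF2. Its gene is on chromosome 19 (chr19:34290647-34327775, GRCm38.p6) and was measured with 3 probes. The log2 values of the brightest were 10.31 and 10.13 in -GFs, 9.00 and 9.44 with FGF2, and 10.07 and 9.93 with BMP4. Both FGF2 arrays lay below the other 4. The group means were 10.22 ± 0.13, 9.22 ± 0.31 and 10.00 ± 0.09 (SD, n = 2) in that order, with a log2 fold change of -0.997 (SE 0.19) with FGF2 and -0.22 with BMP4. The first pair of wells differed by -1.31 and the second by -0.69 with FGF2. The second FAS probe, also detected on all arrays, gave 9.06 and 9.03 in -GFs, 8.04 and 8.36 with FGF2, and 8.99 and 9.00 with BMP4, a log2 fold change of -0.84 with FGF2. The third was detected on no array, as was a probe that the array lists under TNFRSF6, a former name of FAS. The brightest probe was thus just inside the fold threshold and FAS was not called, whereas it was called with another background correction (neqc, -1.19), with median scaling (-1.08) and without -GFs replicate 2 (-1.09). Without FGF2 replicate 1 it was -0.78, and without FGF2 replicate 2 it was -1.22.

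The 250 bases before the start taken for these genes are shown because TNFRSF12A and FAS are the members with the highest and the lowest log2 fold change with FGF2. Capitals mark matches to motifs of factor families that act downstream of growth factors, searched on both strands: EGR (GCGNGGGCG), AP-1 (TGANTCA) and ETS (CCGGAAG). The sequences are from RefSeq for GRCm38.p6, read 5′ to 3′ along the gene, on the minus strand of chr17:23677450-23677699 for TNFRSF12A and on the plus strand of chr19:34290409-34290658 for FAS.
TNFRSF12A: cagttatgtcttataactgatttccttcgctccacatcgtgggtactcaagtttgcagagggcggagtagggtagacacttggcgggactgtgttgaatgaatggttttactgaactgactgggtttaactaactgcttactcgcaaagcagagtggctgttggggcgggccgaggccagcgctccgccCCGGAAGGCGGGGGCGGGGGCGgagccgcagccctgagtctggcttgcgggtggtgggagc
FAS: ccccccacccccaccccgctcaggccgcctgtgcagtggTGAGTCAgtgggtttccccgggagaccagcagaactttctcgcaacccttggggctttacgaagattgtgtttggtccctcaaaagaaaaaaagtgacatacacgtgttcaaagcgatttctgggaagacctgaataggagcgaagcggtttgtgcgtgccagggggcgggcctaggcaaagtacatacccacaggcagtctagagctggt

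The TNFRSF12A stretch held 1 ETS match, beginning at -61 from the start, and 2 EGR matches, at -54 and -48, that overlap each other. FAS held 1 AP-1 match at -211. Its printed stretch ends at 34290658, past the first listed base of the gene, 34290647, so its last bases lie within the listed gene. The position of the match is counted from the base after the stretch, not from the listed start. Windows of 250 bases before to 50 after a start were matched for 8 of the 10 members (9 windows). Among these 8 genes, 1 held an EGR match, 1 an AP-1 match and 3 an ETS match (TNFRSF12A, TNFRSF1A and TNFRSF1B), and none held the NF-kB or the CArG box motif. Of 32851 such windows over all genes, 5.55% held EGR, 7.81% AP-1, 8.86% ETS, 4.51% NF-kB and 1.63% the CArG box. A match describes these letters and is not evidence of binding.

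**Figure D2:**
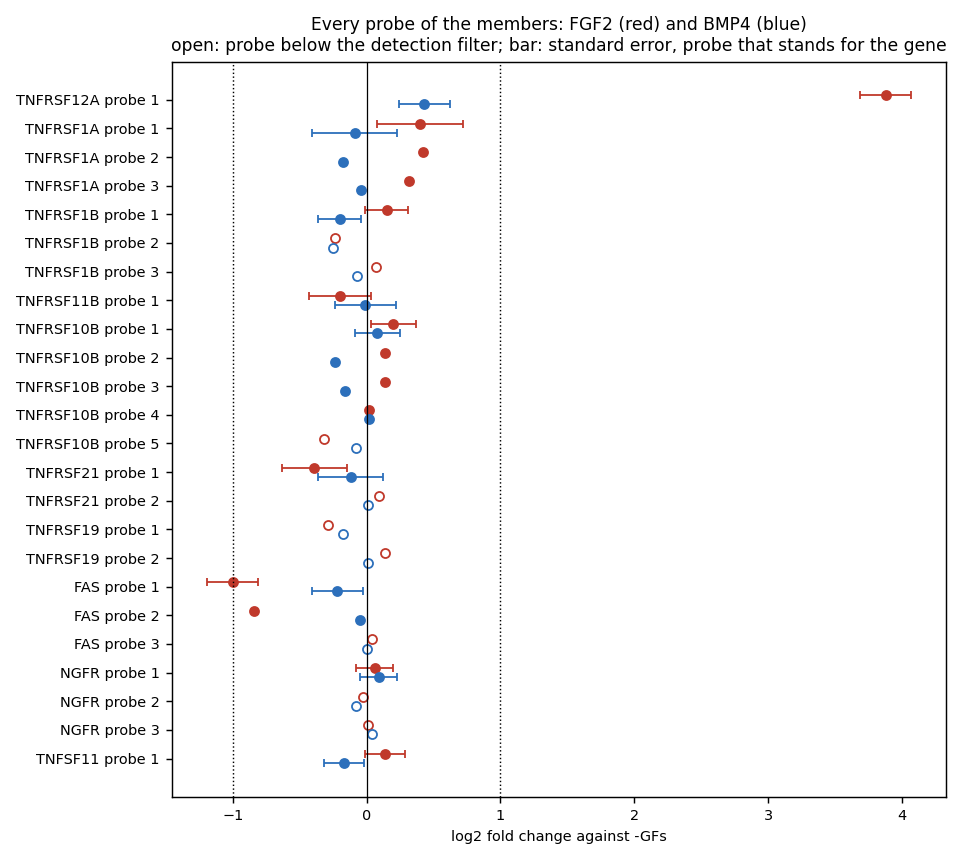
Log2 fold change against -GFs of all 24 probes of the members (y axis), with FGF2 in red and BMP4 in blue; error bars are the standard errors of the probe that stands for the gene, open symbols are probes below the detection filter, and dotted lines mark -1 and 1. TNFRSF12A stands at 3.88 with FGF2, beyond the dotted lines. Both detected FAS probes, at -0.997 and -0.84 with FGF2, lie within them, as do the other probes.

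The receptors of TNF itself showed small differences between the groups. TNFRSF1A (TNFR1), the death domain receptor that conveys most responses to TNF, is on chromosome 6 (chr6:125349723-125362483), and all of its 3 probes were detected on all arrays. Its log2 values were 9.20 and 10.11 in -GFs, 9.80 and 10.30 with FGF2, and 9.47 and 9.66 with BMP4. Replicate 2 was higher than replicate 1 in every group, and the groups overlapped. The log2 fold change with FGF2 was 0.40 (SE 0.32), with 0.42 and 0.32 for the other probes, and with BMP4 it was -0.09 (SE 0.32). It depended on 1 array in each case: with FGF2 it was -0.06 without -GFs replicate 1 and 0.85 without -GFs replicate 2, and with BMP4 it was -0.54 and 0.37.

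TNFRSF1B (TNFR2) binds TRAF adaptors and has no death domain. It is on chromosome 4 (chr4:145212368-145246870), and 1 of its 3 probes was above the filter. Its log2 values were 8.41 and 8.41 in -GFs, 8.62 and 8.50 with FGF2, and 8.09 and 8.34 with BMP4. The 3 groups did not overlap, with FGF2 highest and BMP4 lowest, though the distances were small, 0.15 (SE 0.16) with FGF2 and -0.20 (SE 0.16) with BMP4 on the log2 scale. Of the 2 dim probes, 1 was detected on a single array and the other on none.

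TNFRSF10B, the mouse receptor of the death ligand TRAIL, is on chromosome 14 (chr14:69767472-69784411) and was measured with 5 probes, 4 of them above the filter. The brightest gave 9.39 and 9.34 in -GFs, 9.47 and 9.65 with FGF2, and 9.59 and 9.29 with BMP4. Both FGF2 arrays exceeded both -GFs arrays, whereas the BMP4 arrays spanned the -GFs range. The difference was 0.20 (SE 0.17) on the log2 scale with FGF2 and 0.08 (SE 0.17) with BMP4, and the other 3 probes above the filter gave 0.14, 0.14 and 0.02 with FGF2. With BMP4 the sign depended on the probe, from -0.24 to 0.08 among the 4, and for the brightest probe on the array left out, from -0.07 without BMP4 replicate 1 to 0.23 without BMP4 replicate 2.

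TNFRSF21 (death receptor 6) is on chromosome 17 (chr17:43016555-43089188), and 1 of its 2 probes was above the filter. It was dim, with 7.62 and 8.10 in -GFs, 7.31 and 7.64 with FGF2, and 7.52 and 7.97 with BMP4. It was detected on both -GFs arrays and on replicate 2 alone of the other groups, replicate 2 being higher in each group. It thus passed the filter through the -GFs group alone, where a higher value was a condition of its being tested. The log2 fold change was -0.39 (SE 0.24) with FGF2 and -0.12 (SE 0.24) with BMP4, and with neqc, which spreads dim probes, it was -0.89 with FGF2. With 1 array left out the FGF2 value ranged from -0.63 to -0.15, the nearest to 0 being without -GFs replicate 2, and the BMP4 value from -0.36 to 0.12. TNFRSF19 (TROY), an orphan receptor known from embryonic skin and brain, on chromosome 14 (chr14:60963834-61046855), was detected on no array with either of its 2 probes and was not tested.

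The pair of RANKL and its decoy was close to the detection floor. TNFRSF11B, on chromosome 15 (chr15:54250619-54278484), had log2 values of 8.01 and 7.50 in -GFs, 7.36 and 7.75 with FGF2, and 7.86 and 7.63 with BMP4. It was detected on both arrays of the BMP4 group and on 1 array of each other group, and the groups overlapped. Its log2 fold change was -0.20 (SE 0.23) with FGF2, with -0.65 in the first pair and 0.25 in the second, and -0.01 (SE 0.23) with BMP4. With FGF2 it was 0.06 without -GFs replicate 1 and -0.45 without -GFs replicate 2.

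TNFSF11, on chromosome 14 (chr14:78277446-78308043), was detected on both arrays of -GFs and of FGF2 and on none of BMP4. Its log2 values were 7.58 and 7.71, 7.79 and 7.79, and 7.39 and 7.57 in these groups. FGF2 was highest and BMP4 lowest without overlap, at a level where the floor of the arrays lies. The log2 fold change with FGF2 was 0.14 (SE 0.15). With BMP4 only a bound can be given, at least 1.04-fold lower than in -GFs, which is set by the floor and carries no error. The measured difference was -0.17 (SE 0.15), and no decrease is read from it. TNFSF11 passed the filter through the -GFs and FGF2 groups, where detection was a condition of its being tested.

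NGFR, the p75 receptor that binds all neurotrophins, is on chromosome 11 (chr11:95568818-95587698). Of its 3 probes 2 were detected on no array, and the third passed through the BMP4 group. Log2 values were 7.60 and 7.59 in -GFs, 7.57 and 7.73 with FGF2, and 7.65 and 7.71 with BMP4, the FGF2 arrays spanning both other groups. On that scale the difference was 0.06 (SE 0.14) with FGF2 and 0.09 (SE 0.14) with BMP4, and it was -0.02 without FGF2 replicate 2.

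In a model with the replicate block, which compares wells of the same replicate, the member called stayed TNFRSF12A with FGF2 and none with BMP4, beside 2.51% of all genes up-regulated and 1.44% down-regulated with FGF2. The block lowered the standard error of TNFRSF1A with FGF2 to 0.16 and that of TNFRSF21 to 0.14, both genes in which replicate 2 was the higher one throughout. The drop was not particular to them, as TNFRSF11B went from 0.23 to 0.17 and TNFRSF12A from 0.19 to 0.15. FAS went from 0.19 to 0.16 and TNFRSF10B from 0.17 to 0.15. The block left 2 residual degrees of freedom, and limma draws each gene's spread toward a spread shared by all genes. These standard errors and the block's adjusted p-values thus do not measure a gene's own agreement between pairs. TNFRSF11B had 0.17 although its pairs gave -0.65 and 0.25.

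The genes with the profile most like that of TNFRSF12A over the 6 arrays were DUSP6, EGR3, EGR2, EGR1 and DUSP4. The likeness was measured as the root mean square difference of log2 values after each gene was centred on its own mean, and was 0.30 for DUSP6, 0.38 for EGR3 and EGR2, and 0.39 for EGR1 and DUSP4, with a median of 1.76 over all genes. DUSP6 and DUSP4 encode phosphatases of MAP kinases, and the EGR genes zinc finger transcription factors of the early response to growth factors. Log2 fold changes with FGF2 were 3.55 for DUSP6, 3.43 for EGR3, 4.13 for EGR2, 4.19 for EGR1 and 3.19 for DUSP4. TNFRSF12A lay between them. As the 5 were selected by their likeness to it on these arrays, values near its own were a condition of selection, and nothing is read from them. Its difference with BMP4 (0.43) was above those of the 5, which ranged from -0.27 to 0.01. The -0.27 was that of EGR3, detected on no BMP4 array, where only a bound can be given.

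**Figure D3:**
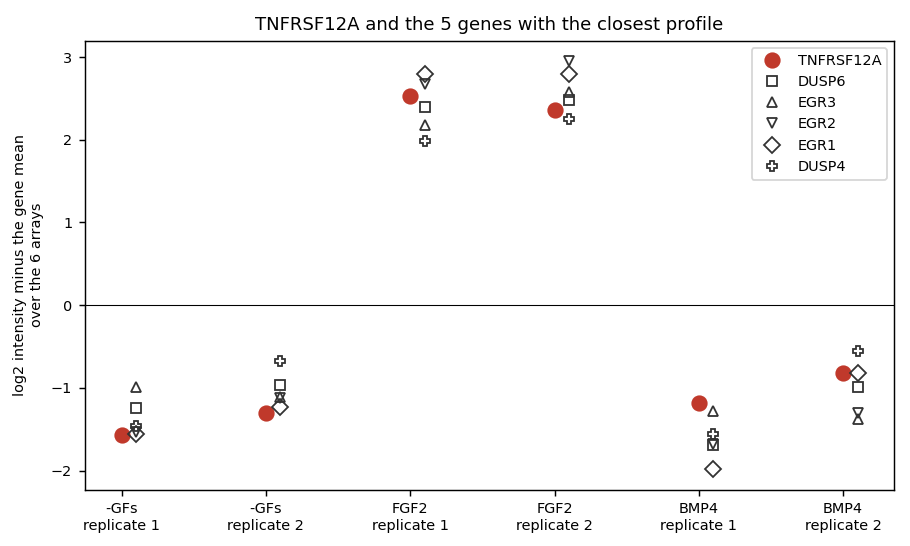
Log2 intensity minus the gene's own mean over the 6 arrays (y axis) on each array (x axis), for TNFRSF12A (red circles) and the 5 genes nearest to it (open symbols). On the 2 FGF2 arrays all 6 genes lie about 2 to 3 above their mean and on the other arrays all lie below it.

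The rest of the family was mostly below detection in PA6 cells. Of 19 other receptors on the arrays, 13 were detected on no array, among them CD40 and TNFRSF11A (RANK), and 6 were tested. In the model without a block none of these passed the test with FGF2, the median log2 fold change being -0.10, from -0.48 to 0.02. With the replicate block 1 of the 6, TNFRSF13C, was lower by the adjusted p and 0 were higher, beside 19.6% and 18.1% of all genes. The largest difference was -0.48 for TNFRSF13C, a receptor of the B cell factor BAFF (limma adjusted p = 0.135, or 0.0193 with the block). It was undetected with FGF2, where only a bound can be given, at least 1.06-fold lower. The next were -0.30 for TNFRSF4 (adjusted p = 0.364, from -0.50 to -0.10 with 1 array left out) and -0.17 for TNFRSF22, a TRAIL decoy receptor (adjusted p = 0.646). TNFRSF4 passed the detection filter through the -GFs group alone, so that a higher value there was a condition of its being tested. LTBR and RELT were detected on all arrays, with log2 fold changes of -0.02 and 0.02.

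Ligands were scarcer still. Of 16 other ligands on the arrays, 14 were detected on no array, including TNF, FASL and TNFSF10 (TRAIL), the ligands of TNFRSF1A, FAS and TNFRSF10B. TNFSF13B (BAFF) alone was tested, with a log2 fold change of -0.22 with FGF2 (limma adjusted p = 0.448), and LTA was detected on 2 arrays. Whether RNA of TNFSF12 (TWEAK), the ligand of TNFRSF12A, was present cannot be told from these arrays. Its own probe was detected on no array, whereas a probe listed jointly under TNFSF12 and TNFSF13, named here after its values were seen, was bright on all 6, with log2 values of 11.71 and 12.36 in -GFs, 11.42 and 11.78 with FGF2, and 11.58 and 12.49 with BMP4. Replicate 2 was higher in every group. The log2 fold change with FGF2 was -0.43 (SE 0.35, limma adjusted p = 0.509), and with the replicate block its adjusted p was 0.038. A second probe under the joint name was detected on 3 arrays.

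Signalling proteins downstream of the receptors were widely detected, and the median differences of their lists were small. Of 25 TRAF and receptor-proximal genes 22 were tested, with a median log2 fold change of 0.01 with FGF2, and none was called. Without a block TRAF5 passed the adjusted p alone, with 0.51 (limma adjusted p = 0.086), beside 6.03% of all genes that passed it upward and 5.78% downward. The others with the largest differences were MAP3K7IP3 (TAB3) with 0.57 (adjusted p = 0.452) and TRAF3 with 0.53 (adjusted p = 0.172). With 1 array left out these 2 ranged from -0.02 to 1.17 and from 0.27 to 0.80. With the replicate block the adjusted p was 0.0084 for TRAF5, 0.014 for MAP3K7IP3 and 0.0118 for TRAF3. By it 4 of the 22 genes were higher and 3 lower whatever the fold, beside 18.1% and 19.6% of all genes.

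Of 18 death domain and caspase genes 15 were tested, with a median of -0.03 and none called. CYCS, cytochrome c, passed the adjusted p with a log2 fold change of 0.95 (limma adjusted p = 0.027) short of the fold threshold, and was called with neqc and also without -GFs replicate 1, where it was 1.13. Its second probe gave 0.18 and the mean of both 0.57. CASP6, an effector caspase, was lower by the adjusted p, with -0.63 (adjusted p = 0.0661), and APAF1, which assembles the apoptosome, had -0.67 (adjusted p = 0.186). FADD and CASP8, the adaptor and the caspase that FAS recruits, had -0.11 and 0.36 (adjusted p = 0.834 and 0.289). With the replicate block the adjusted p was 7.58e-05 for CYCS, 0.00305 for CASP6, 0.00625 for APAF1, 0.627 for FADD and 0.0893 for CASP8. By it 2 of the 15 genes were higher and 2 lower whatever the fold, beside 18.1% and 19.6% of all genes.

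Of 18 NF-kB subunits, kinases and inhibitors 16 were tested, with a median of 0.15, and none passed the test in the model without a block. CHUK, an inhibitor kinase, had a log2 fold change of 0.80 (limma adjusted p = 0.129), NFKB1 had 0.77 (adjusted p = 0.145) and TNIP1, an inhibitor of the pathway, had -0.65 (adjusted p = 0.304). With 1 array left out NFKB1 ranged from 0.39 to 1.14 and TNIP1 from -1.05 to -0.26, and the second probe of NFKB1 gave 0.20. In the model with the replicate block the adjusted p was 0.00036 for CHUK, 0.0016 for NFKB1 and 0.0021 for TNIP1, and 5 of the 16 genes passed it upward and 1 downward whatever the fold, beside 18.1% and 19.6% of all genes.

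Genes known as NF-kB targets were the list with most calls. Of 24 genes 16 were tested, 5 were up-regulated with FGF2 (31.2%) and none down-regulated, beside 2.28% and 1.25% of all genes. As the lists were chosen with earlier results of these data known, nothing is read from this share. The median log2 fold change was 0.55, beside -0.02 over all genes, with 11 genes higher and 5 lower. LIF, MMP3 and ICAM1 passed the detection filter through the FGF2 group alone, so that a higher value there was a condition of their being tested. Without them 4 genes were up-regulated, and the median and the 11 higher genes include all of them. CCL2, a chemokine for monocytes, rose from 9.15 ± 0.71 to 11.41 ± 0.41 (SD, n = 2), a log2 fold change of 2.26 (SE 0.35, limma adjusted p = 0.0187). Its neighbour CCL7 rose by 1.44 (SE 0.22, adjusted p = 0.0185), and LCN2, an iron carrier of innate immunity, by 1.94 (SE 0.44, adjusted p = 0.0531). LIF, a cytokine that sustains murine ES cells, was detected on both FGF2 arrays and on no other, at least 2.31-fold higher than in -GFs. TNFAIP2, first known as a TNF-induced gene, rose by 1.11 (SE 0.19, adjusted p = 0.0234). The protease MMP3, also detected on the FGF2 arrays alone, was at least 1.12-fold higher, and PLAU, with a log2 fold change of 0.72, passed the adjusted p (limma, 0.0509) but not the fold threshold. Without a block other targets did not pass, such as CXCL1 with 0.10 (adjusted p = 0.92), VCAM1 with 0.49 (adjusted p = 0.119) and SOD2 with 0.61 (adjusted p = 0.211). Nor did SAA3 with -0.73 (adjusted p = 0.163) and IRF1 with -0.48 (adjusted p = 0.102, and lower with all 4 of its probes above the filter). In the model with the replicate block the adjusted p was 0.694 for CXCL1, 0.0145 for VCAM1, 0.00261 for SOD2, 0.000614 for SAA3 and 0.0135 for IRF1. By it 9 of the 16 genes, LIF and MMP3 among them, were higher and 2 lower whatever the fold, beside 18.1% and 19.6% of all genes. IL6 and PTGS2 were below the filter. NF-kB target genes respond to other pathways too.

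Of 15 neurotrophin and NGFR partner genes 6 were tested. NGFB, which encodes nerve growth factor, a ligand of NGFR, rose with FGF2 from 8.15 ± 0.18 to 9.80 ± 0.24 (SD, n = 2), which is 1.65 on the log2 scale (SE 0.20, limma adjusted p = 0.0101). SORT1, a partner of NGFR for proneurotrophins, was lower by the adjusted p, with -0.67 (adjusted p = 0.0443). BDNF had 0.85 (SE 0.52, adjusted p = 0.376, or 0.00264 with the replicate block). It was 1.65 without -GFs replicate 1 but 0.06 without -GFs replicate 2.

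Of 17 genes of osteoclast support by stromal cells 8 were tested. OSMR, the receptor of oncostatin M, rose with a log2 fold change of 1.09 (SE 0.17, limma adjusted p = 0.0202). CSF1, the growth factor of osteoclast precursors, was higher by the adjusted p, with 0.90 (adjusted p = 0.068), as was WNT5A with 0.66 (adjusted p = 0.0509), and VDR was lower with -0.62 (adjusted p = 0.0734).

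**Figure D4:**
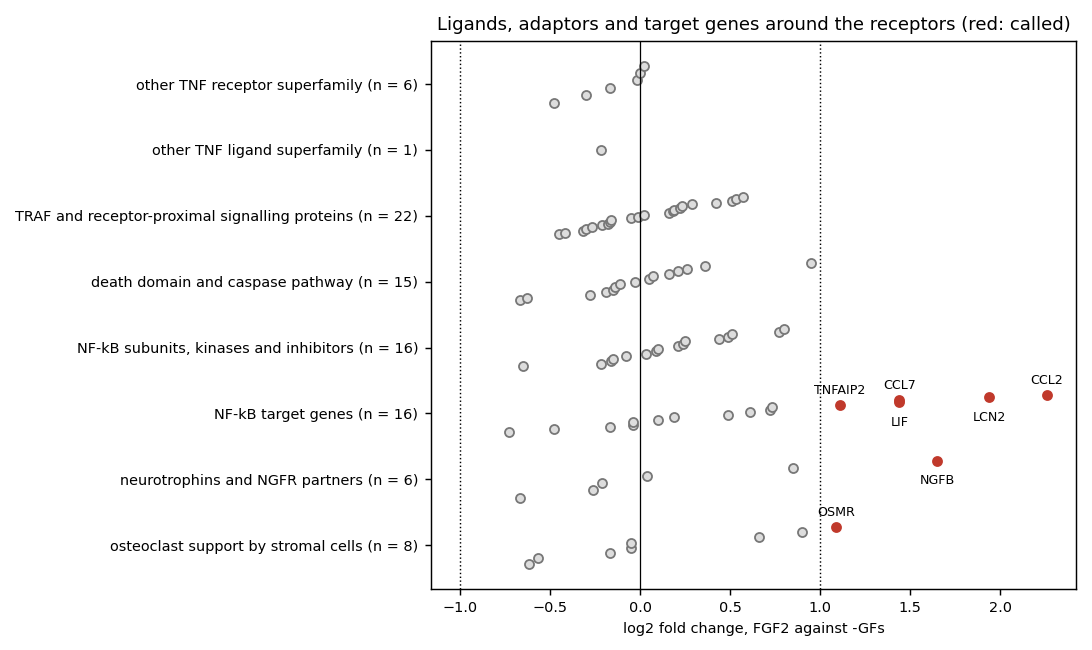
Log2 fold change with FGF2 against -GFs (x axis) of the tested genes of 8 lists around the receptors (y axis, number tested in parentheses); each point is a gene, red points with names were called, and dotted lines mark -1 and 1. The 7 red points lie to the right, 5 of them among the NF-kB target genes, and no gene lies left of -1.

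Over the 8 lists 90 of 153 genes were tested. Of these, 7 were up-regulated with FGF2 (7.78%, or 6 genes without LIF) and none down-regulated, beside 2.28% and 1.25% of all genes. The lists were chosen with earlier results of these data known, so nothing is read from these counts. The replicate block gave 7 and 0 as well, beside 2.51% and 1.44%, neqc gave 9, and a filter for detection on all 6 arrays gave 6. By the adjusted p alone, whatever the fold, 13 list genes were higher and 3 lower, beside 6.03% and 5.78% of all genes. With the block 25 list genes were higher and 12 lower, beside 18.1% and 19.6%. Without FGF2 replicate 2 the count was 1, NGFB, with CCL2 at 1.97, CCL7 at 1.15, LCN2 at 1.34, LIF at 1.24, TNFAIP2 at 0.96 and OSMR at 0.91. TNFAIP2 also lost its call without -GFs replicate 1 (0.93), without FGF2 replicate 1 (1.26) and with median scaling (0.94), and LCN2 without -GFs replicate 1 (1.55). With BMP4 no gene of the lists was called by limma, 0 were higher and 1 lower at an unadjusted p under 0.05, and log2 fold changes ranged from -0.53 to 0.63.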

How the data were processed

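The authors deposited probe intensities on a linear scale with detection p-values, not normalized between arrays, from GenomeStudio 2011.01 per the labels. Of the table, 9 unnamed columns and 6 leftover lines were not used. Following the methods, intensities were normalized in R 4.3.3 by a cubic spline written for this purpose (452 quantiles per array) and log2 was taken. The 16111 probes kept had, in 1 or more groups, both arrays at a detection p under 0.05, and the brightest probe represented its gene. limma 3.58.1 (lmFit, eBayes) was fitted to 6 arrays in 3 groups without a block (3 residual degrees of freedom), with Benjamini-Hochberg adjustment over 11872 genes. A gene was called at an adjusted p under 0.1 if its log2 fold change also exceeded 1 in size. An undetected group gives only a bound. The shared spread rests on 2 arrays per group, for which an exact permutation test cannot go below 0.333. The procedure was tested on simulated data.

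The labels give each biological replicate 1 well per condition, so replicate numbers pair the arrays, and same-numbered arrays deviated together (correlation across genes 0.602, 0.741 and 0.579). The block was an alternative, as were quantile normalization, neqc (offset 16), median scaling, other detection filters, the mean of a gene's probes and leaving out each array. Doses are those of the labels, and the methods on co-cultures give a lower dose of BMP4. Gene names are those of the array. Lists were matched through RefSeq (GRCm38.p6), in which 21742 of 30854 names are current symbols or synonyms. The probes' own sequences and positions were not used here.

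The members and lists were chosen with earlier results of these data known. Named are all members, list genes called or among the 3 with the largest difference in a list, and the 5 genes nearest to TNFRSF12A. All other list genes named were chosen after their values were seen.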

Additional observations from a re-analysis of the deposited data

How the results depend on the processing

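Of 734 values of 54 results under 14 alternatives, 680 were taken as kept, 39 moved further, and 10 values of list genes lost a call. A list gene was kept if it held its direction and side of the threshold, and a member if it moved by less than the replicate spread. A count of genes was kept within a set ratio of its main value, as were 208 up-regulated genes with median scaling against 271 with FGF2. A call was gained 6 times, 3 times by the list genes CYCS and BDNF and 3 times by FAS. The sign turned 14 times, never for a called gene, 12 times among members (TNFRSF1A, TNFRSF10B, TNFRSF11B, TNFRSF21 and NGFR, whose values then lay between -0.08 and 0.37) and 2 times among list genes. These were MAP3K7IP3 with FGF2, which was -0.02 without -GFs replicate 2 (-0.02 to 1.17 over the arrays left out), and TNFRSF22, which was 0.02 without FGF2 replicate 1 (-0.36 to 0.02). With neqc 432 of all genes were up-regulated and 362 down-regulated with FGF2, and 1 member, FAS, was down-regulated, as it was with median scaling (1 member). For BMP4 2 genes were up-regulated without a detection filter. With the replicate block 9 genes were up-regulated and 1 down-regulated with BMP4, none of them a member or a list gene, and the block changed no call of a member or list gene with FGF2. The cause of these shifts was not tested.

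Leaving out 1 array at a time, 70 to 277 of all genes were up-regulated and 33 to 174 down-regulated with FGF2. The lowest counts came without FGF2 replicate 2, and omission of FGF2 replicate 1 gave 121 and 58. The list genes gave 1 to 7 up and 0 to 0 down, and the members 1 to 1 up and 0 to 1 down. With BMP4 0 to 2 of all genes were up-regulated and 0 to 0 down-regulated, and 0 to 0 of the list genes and members in either direction. A lone array was assumed to vary like the other groups. TNFRSF11B, TNFRSF21, NGFR and TNFSF11 lie at the detection floor, where differences are compressed, and TNFRSF19 has no measured level.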
